A study of Saccharomyces cerevisiae with 24 samples.

Results

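The nuclear pore complex is the channel through the nuclear envelope of a eukaryotic cell, and 31 genes for its subunits and closely bound factors in Saccharomyces cerevisiae were followed through replicative ageing. They were chosen by name from the known subunits, though with earlier results of these data known, and make up 31 of the 6672 features of the mus81 table, 31 of 6666 in the hst3 hst4 table and 31 of 6668 in the translocation table. Every one of the 31 passed the filter on low values in each of the 3 tables. RNA-seq was made from polyadenylated RNA with a directional kit, and by its title the study asks what rDNA circles outside the chromosome do to gene expression in old yeast.

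All strains were diploids of the mother enrichment programme, in which β-estradiol, given to all aged cultures at 1 µM, stops daughters from dividing, so that mothers can be collected after long culture in YPD (peptone, yeast extract and glucose). The mus81 table held mus81 mutant mothers, whose nuclease for branched DNA is mutated, and wild-type mothers. Either strain was sampled young (log phase) and after 24 h and 48 h of ageing, and 2 libraries were made of each strain and age. A second table, called the hst3 hst4 table, held mutants of 2 histone deacetylase genes with 2 libraries in log phase and 2 from aged mothers, and a wild type with 1 library in log phase and 1 aged. For these aged libraries the sample titles give 48 h and the age field gives 24 h, and the genotype field calls all 6 libraries wild type, so the titles were followed and the group is called aged. The translocation table held a/a Tom70-GFP diploids without I-SceI that carried an exchange between the right arm of chromosome XII and chromosome V, and control diploids of the same background with the pGST-V-U construct and ADE2. Each strain had 3 libraries, 1 young (log phase) and 1 from either age, 24 h or 48 h. Log-phase cells were taken from the young culture and the aged cells after biotin labelling and purification of mothers. Nothing in the labels says whether libraries came from separate cultures, so p-values measure the spread between these libraries, which may be technical. The translocation table has 1 library per strain and age, so its p-values rest on what strain and age, added together, leave unexplained. A difference in ageing between its 2 strains therefore counts as spread.

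Depth ran from 1656535 to 11330955 reads per library over the 24 libraries. The deleted genes matched the titles: MUS81 had 0 to 10 reads in the mus81 libraries against 39 to 161 in the wild-type ones. HST3 had 2 to 10 reads in the hst3 hst4 libraries against 278 and 319 in wild type, and HST4 had 0 or 1 against 90 and 87. Values are log2 of scaled reads as the authors deposited them, and each table was scaled on its own. A difference of 1 is a factor of 2 in scaled reads, which is not the same as a share of a library's reads. In wild type of the mus81 table, log-phase library 1 had 7417677 reads and 48 h library 1 had 3020733. Their values for 0 reads, -0.39 and 0.20, lay closer together than scaling to these totals would place them. Fewer cells of a type and less RNA per cell cannot be told apart in such bulk samples.

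A pore is built in concentric layers. The Y complex (NUP84, NUP85, NUP120, NUP133, NUP145 and SEH1 here) coats the membrane on both faces, the inner ring (NUP157, NUP170, NUP188, NUP192, NIC96 and NUP53) lines the equator, and NDC1, POM33, POM34 and POM152 are membrane proteins that anchor it. Nucleoporins with phenylalanine-glycine (FG) repeats fill the channel and bind the transport receptors; those of the central channel are NSP1, NUP49, NUP57, NUP100 and NUP116. On the cytoplasmic side NUP82, NUP159, NUP42, GLE1 and GLE2 serve mRNA export, and on the nuclear side NUP1, NUP2, NUP60, MLP1 and MLP2 form the basket, which tethers chromatin and checks mRNA before export. In old yeast mothers, rDNA circles are known to associate with pores, and pore subunits are long-lived.

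The FG repeats can be read directly in the coding sequence, where a phenylalanine codon (TTT or TTC) is followed by a glycine codon (GGN). Counted in frame over the R64 reference, NUP116 held 47 such codon pairs, NUP100 held 45, NSP1 held 33, NUP42 held 29, NUP159 held 28, NUP49 held 18, NUP1 held 17, NUP57 held 16, NUP145 held 15 and NUP2 held 12. No other member held more than 5. NUP116 had 20 and NUP100 had 11 pairs in the GLFG form (glycine, leucine, phenylalanine, glycine), and NSP1 had 19 in the FxFG form (phenylalanine, any residue, phenylalanine, glycine). The stretches of 40 codons richest in FG pairs are shown for the central channel genes, whose median fall at 48 h was the largest of the 6 places in the pore in the mus81 table, and for NUP42, which lay far below wild type in hst3 hst4. They are read 5′ to 3′ on the coding strand with FG codons in capitals:
NUP100: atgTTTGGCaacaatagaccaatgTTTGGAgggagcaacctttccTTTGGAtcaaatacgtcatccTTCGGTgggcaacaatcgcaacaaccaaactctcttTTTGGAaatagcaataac
NUP49: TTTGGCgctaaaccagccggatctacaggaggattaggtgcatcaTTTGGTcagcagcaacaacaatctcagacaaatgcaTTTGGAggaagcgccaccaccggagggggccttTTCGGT
NSP1: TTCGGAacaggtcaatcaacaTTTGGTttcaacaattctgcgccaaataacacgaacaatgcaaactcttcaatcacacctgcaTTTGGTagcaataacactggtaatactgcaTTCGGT
NUP116: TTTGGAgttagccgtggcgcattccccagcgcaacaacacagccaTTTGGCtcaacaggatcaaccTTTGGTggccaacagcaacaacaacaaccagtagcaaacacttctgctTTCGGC
NUP57: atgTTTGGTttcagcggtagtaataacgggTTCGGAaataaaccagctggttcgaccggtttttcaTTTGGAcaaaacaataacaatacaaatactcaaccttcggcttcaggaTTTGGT
NUP42: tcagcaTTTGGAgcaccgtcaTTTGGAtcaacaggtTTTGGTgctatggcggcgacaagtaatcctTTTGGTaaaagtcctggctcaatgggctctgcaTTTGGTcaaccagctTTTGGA
These lie in R64 at chrXI:310199-310318 (plus strand) for NUP100, chrVII:180847-180966 (plus) for NUP49, chrX:366007-366126 (plus) for NSP1, chrXIII:366583-366702 (minus) for NUP116, chrVII:729552-729671 (minus) for NUP57 and chrIV:844409-844528 (minus) for NUP42, all within coding exons. NSP1 has 1 intron, upstream of its stretch, and the other 30 members have 1 exon each. No member shares an exact stretch of 50 bases with another gene, so reads of the paralogues NUP100 and NUP116, NUP157 and NUP170, or MLP1 and MLP2 are not mixed at that length.

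Per kilobase of gene length, the log-phase levels of the members lay close together. NUP2 was highest, at a log2 value per kb of 9.39 in mus81 and 9.49 in wild type (means of 2 libraries), above 80.7% and 81.4% of all genes. NUP42 was lowest, at 7.38 in mus81 and 7.27 in wild type, near the middle of all genes (49.9 and 47.8 percentile). The other 29 members lay between the 62.8 and 79.6 percentile in wild type. At 48 h in wild type NUP2 still led at 8.78, followed by SEH1 at 8.75 and POM33 at 8.68, while NUP100 had dropped to 7.02 and rank 30 of 31, against 8.67 and rank 12 in log phase.

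On the deposited scale nearly the whole pore fell together between log phase and 48 h in both strains of the mus81 table. In mus81 mothers 26 of 31 members were lower at 48 h than in log phase and none was higher, with a median log2 fold change of -0.80. Wild-type mothers showed 28 of 31 lower and none higher, with a median of -0.83. The test was limma's moderated test over all features with Benjamini-Hochberg adjustment, called at an adjusted p under 0.05. Of all 6669 features tested, 60.2% were called in mus81 (29.5% lower, 30.7% higher) and 63.1% in wild type (30.1% lower, 33.1% higher), with medians of 0.112 and 0.149. The 26 members lower in mus81 were all among the 28 lower in wild type. As a share of each library's reads the members' sum fell by less than these medians. Scaled to the same library total (RPM), it was 4479 and 4658 in mus81 at 48 h against 5044 and 4837 in log phase. In wild type it was 4228 and 4184 RPM at 48 h against 5120 and 4830 in log phase.

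**Figure D1:**
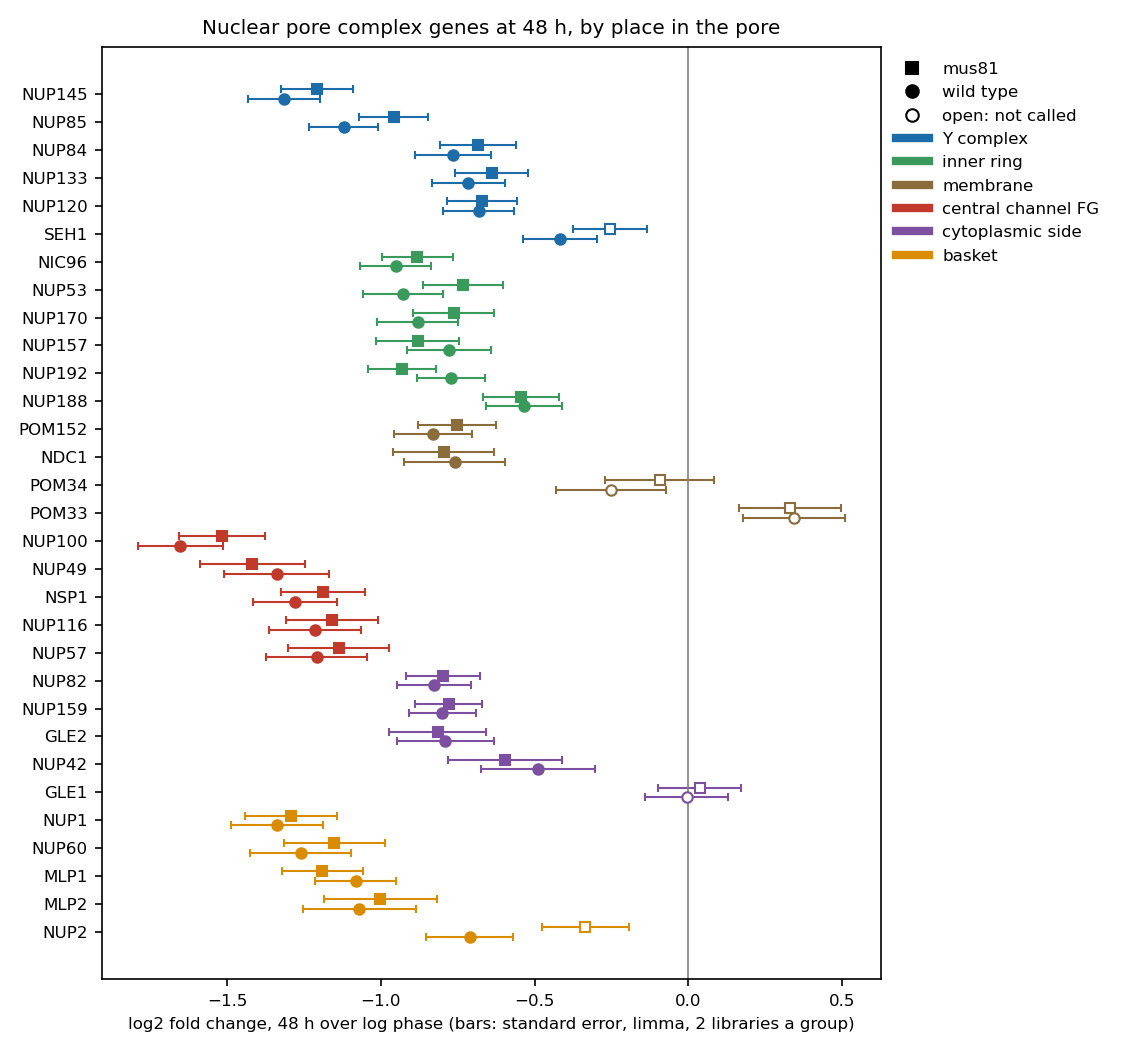
Log2 fold change at 48 h over log phase for each of the 31 genes (x axis), grouped and coloured by place in the pore (y axis), with squares for mus81, circles for wild type and bars for the standard error from limma (2 libraries a group). Open symbols were not called. The 5 central channel genes lie between -1.14 and -1.65, and POM33, POM34 and GLE1 are not called in either strain.

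Of the 6 places in the pore the channel FG genes had the largest median fall. All 5 were lower in both strains, with a median of -1.19 in mus81 and -1.28 in wild type. NUP100, a GLFG nucleoporin of the permeability barrier, had log2 values of 8.46 and 8.48 in mus81 at 48 h against 10.09 and 9.89 in log phase. In wild type it had 8.50 and 8.59 at 48 h against 10.29 and 10.10 in log phase. Its fold change was -1.52 ± 0.14 in mus81 (SE, adjusted p = 3.37e-07) and -1.65 ± 0.14 in wild type (adjusted p = 1.28e-07), which left 0.349 and 0.318 of the log-phase scaled reads. The paralogue NUP116, the docking partner of GLE2, had 9.25 and 8.99 in mus81 at 48 h against 10.40 and 10.15 in log phase. Wild-type libraries gave 9.27 and 9.06 for NUP116 at 48 h against 10.44 and 10.31 in log phase. Neither gene's libraries overlapped between the ages, though the share of all features without overlap was not counted.

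NSP1, NUP49 and NUP57 form 1 trimer that lines the channel, and they fell by similar amounts. NUP49 had 8.08 and 7.51 in mus81 at 48 h against 9.31 and 9.12 in log phase, and 8.01 and 7.85 in wild type at 48 h against 9.35 and 9.18. NSP1, also a partner of NUP82 on the cytoplasmic face, had 9.19 and 9.07 in mus81 at 48 h against 10.44 and 10.19 in log phase, and 9.06 and 9.14 in wild type at 48 h against 10.51 and 10.25. The fold changes were -1.42, -1.19 and -1.14 for NUP49, NSP1 and NUP57 in mus81, and -1.34, -1.28 and -1.21 in wild type, with standard errors of 0.14 to 0.17.

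The basket came next. In mus81 4 of its 5 genes were lower (median -1.15), and in wild type all 5 were (median -1.08). NUP1, an FG nucleoporin that anchors the basket to the membrane, had 9.29 and 8.92 in mus81 at 48 h against 10.51 and 10.28 in log phase. In wild type it had 9.02 and 9.22 at 48 h against 10.56 and 10.35. NUP60, which links MLP proteins to the pore, had 8.39 and 8.53 in mus81 at 48 h against 9.58 and 9.64 in log phase, and 8.27 and 8.41 in wild type at 48 h against 9.67 and 9.53. The long coiled-coil proteins MLP1 and MLP2 make the basket filaments. MLP1 had 9.48 and 9.42 in mus81 at 48 h against 10.69 and 10.59, and 9.67 and 9.64 in wild type at 48 h against 10.70 and 10.78. MLP2 had 9.75 and 9.71 in mus81 at 48 h against 10.75 and 10.70, and 9.65 and 9.89 in wild type at 48 h against 10.81 and 10.88. No basket gene's libraries overlapped between the ages, and here too the share of all features without overlap was not counted.

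NUP2, a mobile FG nucleoporin that helps to release cargo, moved least of the basket. It had 10.10 and 10.24 in mus81 at 48 h against 10.51 and 10.50 in log phase, a difference of -0.34 ± 0.14 that was not called (adjusted p = 0.0519). In wild type it had 9.87 and 9.91 at 48 h against 10.63 and 10.58, a change of -0.71 ± 0.14 (adjusted p = 0.000443). NUP2 depended on the scaling: after quantile normalization its difference was 0.18 in mus81 and -0.24 in wild type, and neither was called, whereas median centring gave -0.44 in mus81, which was called (adjusted p = 0.0112).

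The scaffold fell by less. All 6 inner ring genes were lower in both strains, with medians of -0.82 in mus81 and -0.83 in wild type. NIC96, which holds the channel trimer in the ring, had 9.30 and 9.25 in mus81 at 48 h against 10.12 and 10.19 in log phase, and 9.08 and 9.32 in wild type at 48 h against 10.16 and 10.14. The paralogues NUP157 and NUP170 changed by -0.88 and -0.76 in mus81 and by -0.78 and -0.88 in wild type, with standard errors of 0.13 to 0.14. NUP192, the largest ring protein, changed by -0.93 ± 0.11 in mus81 and -0.77 ± 0.11 in wild type.

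In the Y complex 5 of 6 genes were lower in mus81 (median -0.68) and 6 of 6 in wild type (median -0.74). NUP145, whose product cuts itself into an FG part and a Y complex part, led them with 9.08 and 9.18 in mus81 at 48 h against 10.32 and 10.36 in log phase. Wild-type NUP145 had 9.21 and 9.15 at 48 h against 10.48 and 10.50. At the other end stood SEH1, a propeller protein that the nutrient-sensing SEA complex also uses, with a difference of -0.26 ± 0.12 in mus81 (adjusted p = 0.0771, not called) and a fall of 0.42 on the log2 scale in wild type (SE 0.12, adjusted p = 0.00661). After quantile normalization SEH1 was called in neither strain, and after median centring in both (adjusted p = 0.0151 in mus81).

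Among the cytoplasmic-side genes 4 of 5 were lower in each strain, with medians of -0.78 in mus81 and -0.79 in wild type. GLE2 and NUP82 changed by -0.82 and -0.80 in mus81, and by -0.79 and -0.83 in wild type. NUP159, the docking site of the mRNA helicase DBP5, changed by -0.78 in mus81 and -0.80 in wild type. GLE1, which activates DBP5 for the last step of mRNA export, was not called: it averaged 9.07 in mus81 at 48 h against 9.03 in log phase (2 libraries each), and had 9.14 and 9.04 in wild type at 48 h against 9.02 and 9.16. Its libraries overlapped between the ages in both strains, and the sign of its small difference turned with the scaling.

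The membrane genes split. NDC1 and POM152 fell in both strains, NDC1 by 0.80 and 0.76 and POM152 by 0.75 and 0.83 on the log2 scale in mus81 and wild type. POM33 had 8.44 and 8.45 in mus81 at 48 h against 8.21 and 8.02 in log phase, and 8.24 and 8.61 in wild type at 48 h against 8.26 and 7.90. Its differences of 0.33 ± 0.17 and 0.34 ± 0.17 were not called (adjusted p = 0.101 and 0.0867) and stayed positive under each scaling tried. POM34 differed by -0.09 in mus81 and -0.25 in wild type and was not called.

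**Figure D2:**
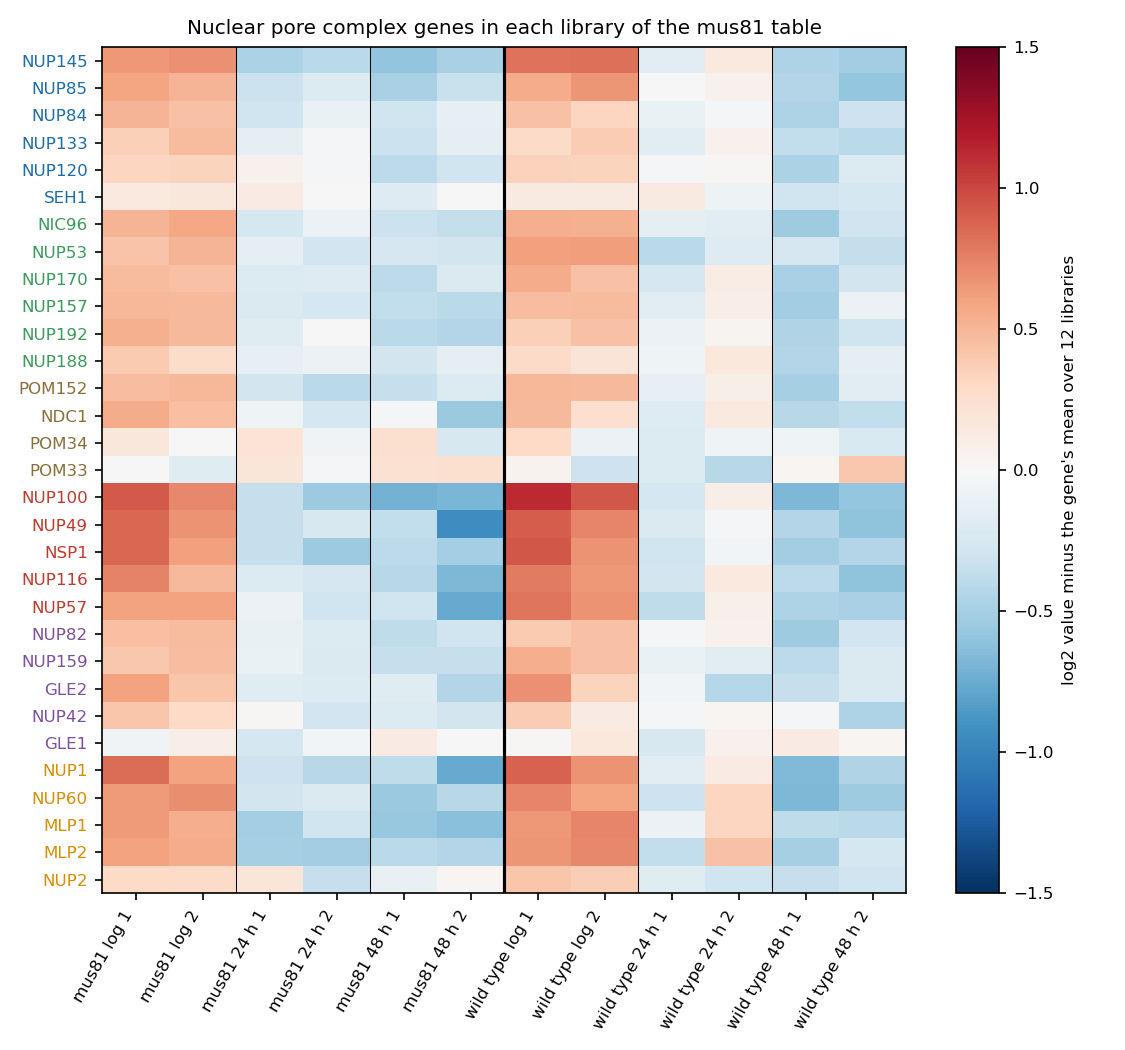
Log2 value of each gene minus its own mean over 12 libraries (colour) in every library of the mus81 table (columns, mus81 left of wild type, ages from young to old within a strain), with rows ordered by place in the pore. All 4 log-phase columns lie above the gene's mean except for GLE1, POM33 and POM34, and all 4 of the 48 h columns lie below it except for these 3 genes and NUP2.

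Most of the fall was in place at 24 h. In mus81 27 members were lower and none higher at 24 h than in log phase (52% of all features called, 25.7% lower and 26.3% higher), with a median of -0.68. In wild type 24 were lower and none higher (48.6% called, 24.2% lower and 24.4% higher), with a median of -0.58. From 24 h to 48 h no mus81 member was called by limma (6.34% of all features called, 0.99% higher and 5.35% lower; 2 members at an unadjusted p under 0.05, none by voom on recovered reads). Wild type added 9 lower members and 1 higher between 24 h and 48 h (21.8% called, 12.7% lower and 9.06% higher). The higher one was POM33, at 8.24 and 8.61 at 48 h against 8.00 and 7.80 at 24 h (difference 0.53 ± 0.17, adjusted p = 0.0355), and the lower ones included NUP60 (-0.60), NUP85 (-0.54), NUP1 (-0.54) and NUP100 (-0.54). That count rests on single libraries: it was 1 without wild-type 24 h library 2, 1 without 48 h library 1 and 18 without 24 h library 1. The wild-type 24 h library 2 was the shallowest of the series, and 25 of 31 members were higher in it than in library 1 (median difference 0.22, against 0.021 over all features).

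Marker genes of other cells and states moved with age as well. Of 10 genes made mainly in daughter cells, 9 were lower at 48 h in each strain, and their summed level was 1341 to 1431 RPM (reads scaled to the same library total) in mus81 at 48 h against 2259 to 2704 in log phase, and 1773 to 2276 in wild type at 48 h against 2474 to 3304. None of the 10 was at 0 in any library. All 5 general stress genes were higher, at 1762 and 2053 RPM in mus81 at 48 h against 15.5 and 17.3 in log phase, and 2052 and 1561 in wild type at 48 h against 8.49 and 7.79; DDR2 alone was at 0, in 3 log-phase libraries. Their part in the fall of the pore genes was not tested.

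At a given age no pore gene separated mus81 from wild type past the threshold. No member was called between mus81 and wild type by limma in log phase (0.405% of all features called), at 24 h (0.93%; 0.705% higher, 0.225% lower) or at 48 h (0.24%; 0.03% higher, 0.21% lower), and voom on recovered reads called none either. At an unadjusted p under 0.05 there were 0, 8 and 0 members. At 48 h the differences lay between -0.21 and 0.28. At 24 h the lowest adjusted p was that of MLP1 (0.0693), with 9.54 and 9.74 in mus81 against 9.96 and 10.37 in wild type. MLP2 had 9.66 and 9.63 in mus81 at 24 h against 9.79 and 10.59 in wild type, and of the wild-type pair library 2 lay far above library 1. Without wild-type 24 h library 1, 5 members were called at 24 h. The test of the difference in ageing between the strains called no member at 24 h (0.015% of features called, 1 member at an unadjusted p under 0.05) or at 48 h (0.12%, 0 members); without wild-type 24 h library 1 the first count was 1.

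FG content and the size of the fall went together loosely. The 10 members with at least 10 FG codon pairs had a median fold change at 48 h of -1.17 in mus81 and -1.25 in wild type, against -0.76 and -0.78 for the other 21. Across the 31 members, which all come from the same libraries, FG pairs per 1000 codons and the wild-type fold change had a Pearson correlation of -0.344 and a Spearman correlation of -0.25. Without NUP42 these were -0.549 and -0.349. NUP42, with the highest density at 67.3 pairs per 1000 codons, changed by only -0.60 in mus81 and -0.49 in wild type. NUP60, which has no FG codon pair, changed by -1.15 and -1.26.

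**Figure D3:**
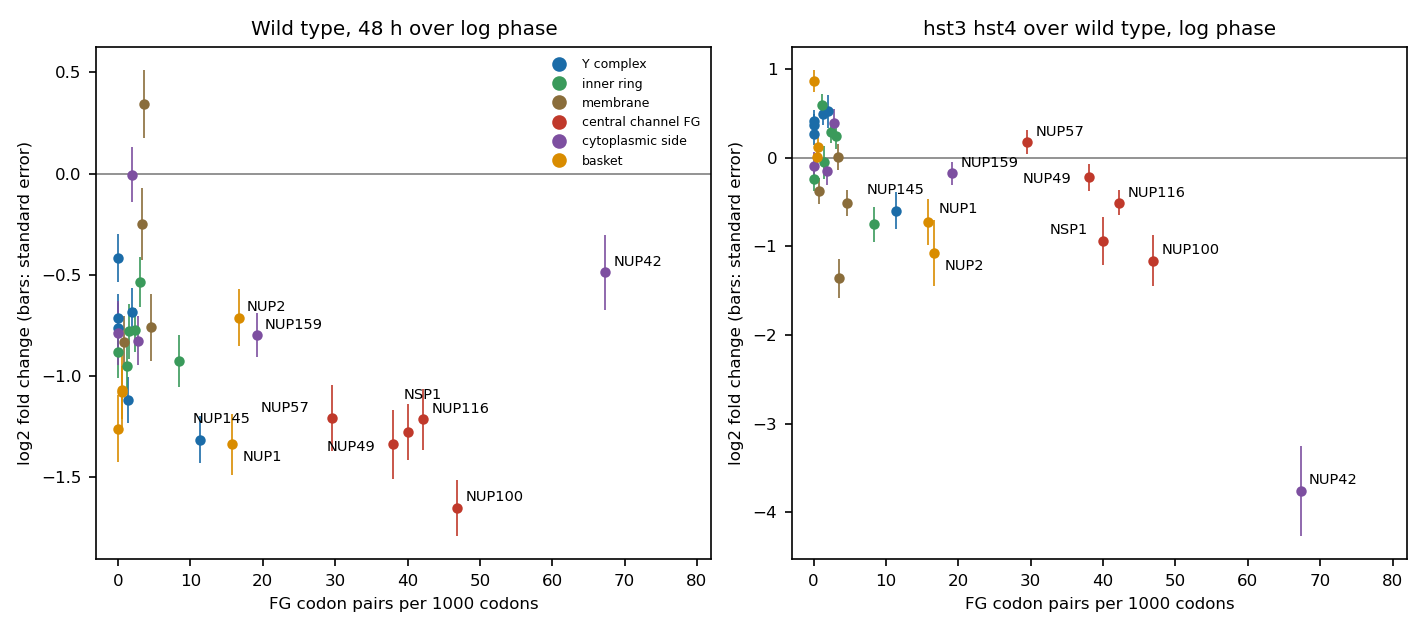
FG codon pairs per 1000 codons (x axis) against log2 fold change with its standard error (y axis) for the 31 genes, coloured by place in the pore, at 48 h over log phase in wild type (left) and for hst3 hst4 over wild type in log phase (right). On the left NUP100 lies lowest at -1.65, and on the right NUP42 lies at -3.76 and most FG-rich genes lie below 0.

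Promoter windows of the 31 members were searched for short words. The windows ran from 250 bases before to 50 bases after the start codon, and both strands were searched. TTACCCG, the core of the site of the general regulatory factor Reb1, was found in 7 of 31 members (22.6%) and in 7.08% of 6007 promoters. The other words searched are known from other yeast regulons, and no match to them overlapped a Reb1 match. GATGAG (the PAC core, common upstream of ribosome assembly genes) stood in 35.5% of members and 20.4% of all promoters, and AAAATTTT (RRPE core) in 16.1% and 9.04%. CCCCT, the stress response element, stood in 3.23% of members and 21.6% of all promoters, and ACGCGT, the MCB element of cell-cycle genes, in 3.23% and 3.06%. These are matches of letters and not measured binding. The Reb1 words are shown with up to 15 bases on each side, since 4 of the 7 belong to the inner ring, read 5′ to 3′ on the coding strand with the word or its reverse complement CGGGTAA in capitals:
NIC96: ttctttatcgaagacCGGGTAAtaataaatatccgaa
NUP157: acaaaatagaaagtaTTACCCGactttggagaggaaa
NUP188: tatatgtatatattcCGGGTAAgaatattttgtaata
NUP53: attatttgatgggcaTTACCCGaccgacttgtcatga
NUP116: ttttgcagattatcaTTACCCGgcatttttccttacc
GLE1: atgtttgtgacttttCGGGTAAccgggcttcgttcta
MLP2: gatagcTTACCCGgatattgcatggaaa
In R64 they lie at chrVI:149861-149897 (NIC96, plus strand), chrV:372139-372175 (NUP157, minus), chrXIII:67660-67696 (NUP188, minus), chrXIII:564268-564304 (NUP53, plus), chrXIII:366855-366891 (NUP116, minus), chrIV:88101-88137 (GLE1, plus) and chrIX:68290-68317 (MLP2, minus). The matches in NIC96, NUP157, NUP188, NUP53 and GLE1 began at positions -132 to -152 from the start codon, that of NUP116 at -171 and that of MLP2 at -244. Members with the word included both GLE1, which was not called at 48 h, and NUP116, which fell by more than 1 on the log2 scale.

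In the hst3 hst4 table ageing split the family. Of 31 members 17 were lower and 5 higher in aged than in log-phase hst3 hst4 mothers (52.2% of all features called; 23.6% lower, 28.6% higher), with a median of -0.52 against 0.112 over all features. This test rested on 2 residual degrees of freedom, and its count was 3 without aged library 1 and 8 without aged library 2. Summed over the members, the aged hst3 hst4 libraries had 4702 and 5038 RPM against 5192 and 4932 in log phase. The Y complex fell as a whole, 6 of 6 with a median of -0.73. NUP85 had 9.49 and 9.63 in aged against 10.54 and 10.55 in log-phase libraries, and NUP120 had 9.39 and 9.66 against 10.36 and 10.60. Among inner ring genes NIC96, NUP157, NUP188 and NUP192 were lower, and of the basket MLP1, MLP2 and NUP60 were. NUP60 had 9.79 and 9.78 in aged against 10.51 and 10.60 in log-phase libraries.

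The 5 higher members were NUP2, NSP1, NUP1, POM33 and NDC1. NUP2 had 10.77 and 10.75 in aged hst3 hst4 libraries against 10.02 and 9.10 in log-phase ones (difference 1.21 ± 0.30, adjusted p = 0.0236). NSP1 had 10.26 and 10.43 in aged against 9.83 and 9.21 in log-phase libraries (0.82 ± 0.22, adjusted p = 0.0294). NUP1 had 10.37 and 10.51 in aged against 10.05 and 9.46 in log-phase libraries (0.69 ± 0.21, adjusted p = 0.0431). In aged mothers these 3 genes were close to the wild-type library, at 10.82 for NUP2, 10.32 for NSP1 and 10.24 for NUP1. In log phase both mutant libraries stood below the wild-type one, at 10.63, 10.46 and 10.48, and library 2 stood below library 1.

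The log-phase difference went with FG content. NUP100 had 9.25 and 8.57 in hst3 hst4 against 10.07 in wild type in log phase (difference -1.16 ± 0.29, adjusted p = 0.0527, not called). Across the 31 members, FG pairs per 1000 codons and the log-phase difference of hst3 hst4 over wild type had a Pearson correlation of -0.719 and a Spearman correlation of -0.653; without NUP42 they were -0.52 and -0.617. The same density and the difference between the 2 hst3 hst4 log libraries (library 2 minus library 1) had -0.651 and -0.629. GC content of the gene had -0.562 and -0.576 with the log-phase difference. The median of library 2 minus library 1 was -0.51 over the 10 FG-rich members and -0.09 over the other 21, against -0.03 over all features. Library 1 and both wild-type libraries were sequenced in 1 lane and library 2 in another. The file headers of both wild-type libraries also carry a batch label, which those of the hst3 hst4 libraries lack. The part of lane or batch in this was not tested.

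Between hst3 hst4 and wild type in log phase 4 members were called, 2 higher and 2 lower (17.1% of all features; 8.73% higher, 8.36% lower). The lone wild-type library was taken to vary like the mutant pairs, and with 1 wild-type library per age, strain and library cannot be told apart. Of the 10 daughter-cell genes 8 were lower and none higher in hst3 hst4 in log phase, with summed levels of 2022 and 2214 RPM against 5174 in wild type. In aged cells 7 were lower and none higher, with 1932 and 1982 RPM against 2136, and their part in the pore genes' differences was not tested. NUP60 had 10.51 and 10.60 in hst3 hst4 against 9.69 in wild type (0.87 ± 0.12, adjusted p = 0.0186), and NIC96 had 10.55 and 10.47 against 9.91 (0.60 ± 0.12, adjusted p = 0.0341). POM33 had 8.54 and 8.09 in hst3 hst4 against 9.67 in wild type (-1.36 ± 0.22, adjusted p = 0.0232), and in aged cells 8.93 and 8.84 against 9.15. In aged mothers 1 member was called, NUP42 (16.9% of all features called; 8.44% higher, 8.48% lower). A test of whether ageing differed between hst3 hst4 and wild type, added after the values had been seen, called no member by limma (10.3% of all features called, 4.29% higher and 6.03% lower; 9 members at an unadjusted p under 0.05, 1 member by voom), but 21 without hst3 hst4 log library 1 and 17 without log library 2. The wild type of this table, with 1 library at each age and no test, had 25 of 31 members below their log-phase value in the aged library, with a median difference of -0.16. Over all features 3209 of 6613 were below it, with a median of 0.017. Of the daughter-cell genes 6 of 10 were lower and 2 higher in aged hst3 hst4, and all 5 stress genes were higher, at 1149 and 1183 RPM in aged against 226 and 527 in log-phase libraries. The wild type of this table had 672 RPM of the stress genes in the aged library against 489 in log phase. The part of either list in the pore genes' change with age was not tested.

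NUP42 had the largest difference between hst3 hst4 and the single wild-type library at either age. It had log2 values of 4.37 and 3.35 in hst3 hst4 against 7.61 in wild type in log phase (-3.76 ± 0.51, adjusted p = 0.0172), and 4.54 and 5.11 against 7.89 in aged cells (-3.07 ± 0.51, adjusted p = 0.0216). In reads these were 19 and 6 in hst3 hst4 against 208 in log phase, and 23 and 36 against 182 in aged cells. The call in aged cells was lost without either aged hst3 hst4 library (adjusted p = 0.137 and 0.136), with the differences at -2.78 and -3.36. NUP42, an FG nucleoporin that works with GLE1 at the cytoplasmic face, lies on chromosome IV (chrIV:843569-844861, minus strand) and ends 119 bases from the end of the deleted HST4 (chrIV:842337-843449, plus strand), so both genes point at each other. YDR193W, a reading frame on the opposite strand that overlaps the 5′ end of NUP42 (chrIV:844554-844952, plus strand), had 52 and 16 reads in hst3 hst4 against 0 in wild type in log phase, and 106 and 122 against 1 in aged cells. NUP42 counts were low and YDR193W counts high in the same 4 libraries. Only the 5′ end of NUP42 overlaps YDR193W, and how reads in an overlap were assigned is not given in the sources used, so reads of these frames cannot be told apart with certainty. In mus81 and its wild type NUP42 was at 6.93 to 7.80. Of the other members, NUP53, NUP159, NDC1 and GLE2 also overlap a frame on the other strand.

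**Figure D4:**
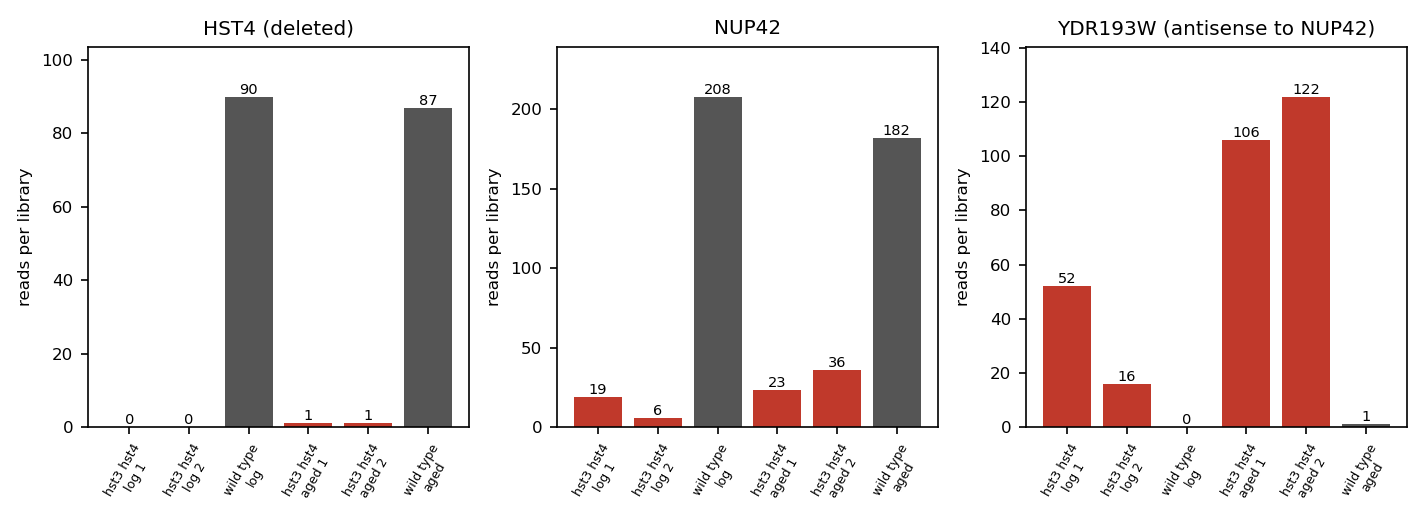
Reads per library (y axis, from 0) for HST4, NUP42 and the opposite-strand frame YDR193W in the 6 libraries of the hst3 hst4 table (x axis, red for hst3 hst4 left of grey wild type, log phase then aged). HST4 and NUP42 are low and YDR193W is high in all 4 hst3 hst4 libraries.

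The pore genes mostly had negative differences with age in the translocation table too, 29 of 31 at 24 h and 29 of 31 at 48 h, and part of these were called. With strain and age as additive terms and 2 residual degrees of freedom, 8 members were lower and none higher at 24 h than in log phase (32.1% of all features called; 11% lower), and 10 were lower and 1 higher at 48 h (40.4% called; 17.2% lower, 23.1% higher). The medians were -0.64 and -0.60, against 0.157 and 0.184 over all features. Summed over the members, the translocation strain had 3165 RPM at 24 h and 4224 at 48 h against 4831 in log phase. The control had 3573 RPM at 24 h and 3743 at 48 h against 3547 in log phase. At 48 h the lower members were MLP1 (-1.59), NSP1 (-1.31), NUP57 (-1.28), NUP49 (-1.20), NUP2 (-1.18), NUP60 (-1.16), MLP2 (-0.99), NUP85 (-0.90), NDC1 (-0.70) and NIC96 (-0.65). POM33 was the higher one, at 8.49 in the translocation strain and 8.60 in the control at 48 h against 7.63 and 7.92 in log phase (0.77 ± 0.26, adjusted p = 0.0447). The 48 h count was 0 without the control 48 h library and 2 without the translocation 48 h library. Of the 10 daughter-cell genes 1 was lower at 48 h in this table and none was higher. Their summed level was 2265 RPM in the translocation strain and 2611 in the control at 48 h, above the 2095 and 1998 in log phase. All 5 stress genes were higher, at 1503 RPM in the translocation strain and 1864 in the control at 48 h against 11.4 and 10.6 in log phase. The part of either list in the change of the pore genes was not tested. The 24 h count ran from 3 without either 48 h library to 15 without the control log library.

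No member was called between the translocation strain and the control by limma (0.015% of all features called; 0 members at an unadjusted p under 0.05, none by voom), and 3 were called without either of the 24 h libraries. In log phase, however, several long or FG-rich genes stood far apart in single libraries. NUP116 had 9.85 in the translocation strain against 8.00 in the control, NUP1 had 9.87 against 8.07, NUP100 had 9.48 against 7.77 and NUP145 had 10.02 against 8.61. At 48 h the same 4 genes had 8.41, 8.49, 7.90 and 8.57 in the translocation strain against 7.84, 8.25, 7.19 and 8.60 in the control. Across the 31 members the log-phase difference went with the number of codons (Pearson 0.532, Spearman 0.707), and over all features 90% of the log-phase differences lay between -0.70 and 1.59. With 1 library per strain and age, strain and library cannot be told apart here. NUP2, on chromosome XII right of the rDNA and so on the moved arm, had 10.14, 8.89 and 8.97 from log phase to 48 h in the translocation strain against 9.90, 9.36 and 8.70 in the control.

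**Figure D5:**
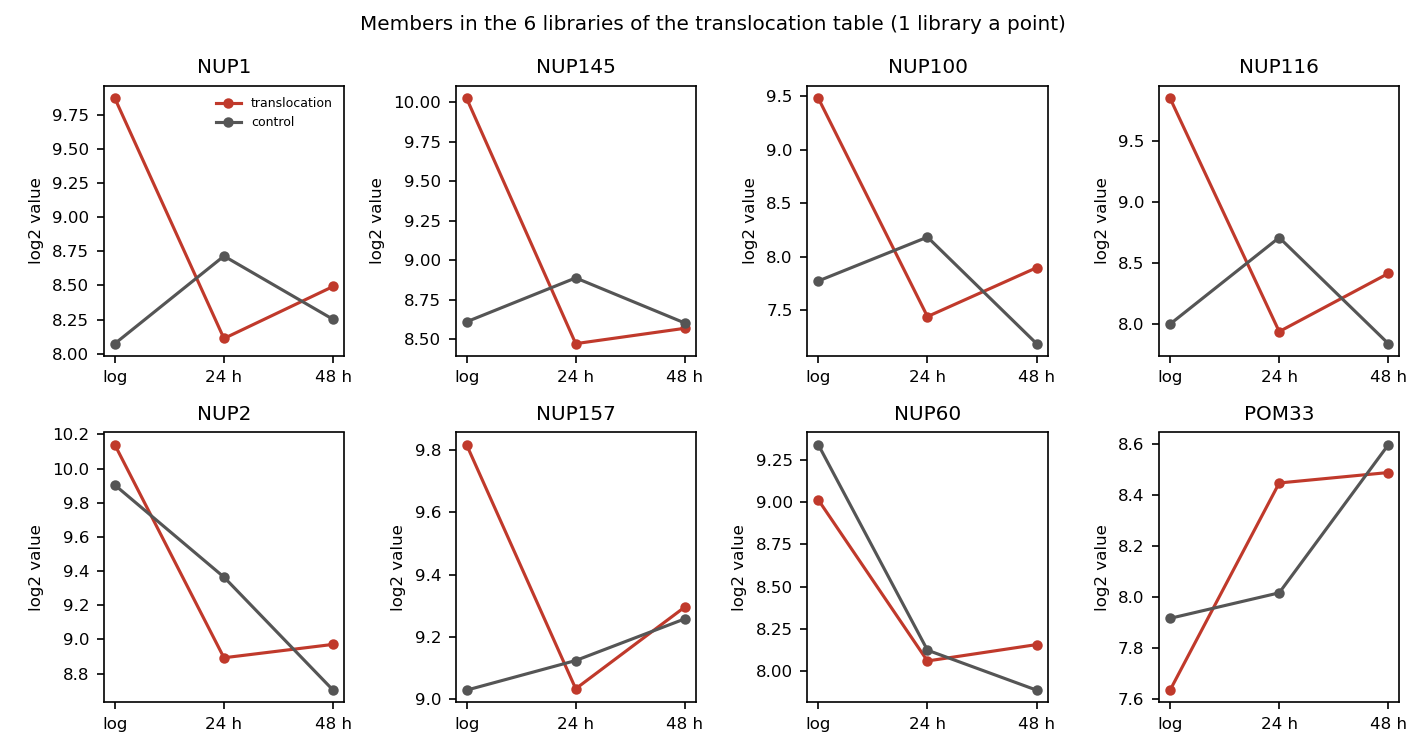
Log2 value (y axis) at log phase, 24 h and 48 h (x axis) in the translocation strain (red) and the control (grey), 1 library per point, for 8 genes chosen after their values were seen. NUP1, NUP145, NUP100 and NUP116 start higher in the translocation strain, and POM33 ends higher than it starts in both strains.

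Calls were compared across the aged groups, from fits of different size (6 residual degrees of freedom in the mus81 table and 2 in each of the others), so that fewer calls there do not show fewer changes. The log-phase libraries differed between tables as well. Their summed stress genes stood at 226 to 527 RPM in the hst3 hst4 table and at 7.79 to 17.3 in the other tables. The part of this in the calls was not tested. Of the 26 members lower at 48 h in both mus81 and wild type, 16 were lower and 3 higher in aged hst3 hst4, and 9 were lower at 48 h in the translocation table. MLP1, MLP2, NIC96, NUP49, NUP57, NUP60 and NUP85 were lower in all 4. GLE1, POM33 and POM34 were lower in none of them. POM33 was called higher in aged hst3 hst4 and in the translocation table, though in each case quantile normalization or median centring left its adjusted p between 0.0515 and 0.0768. Limma without the variance trend left it at 0.0848 in hst3 hst4 and 0.097 in the translocation table. Each call was also lost when some single libraries were left out. In the wild type of the hst3 hst4 table, with 1 library per age, POM33 went the other way, at 9.15 in aged cells against 9.67 in log phase.

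Genes of the wider transport machinery were counted in the mus81 table in the same way. Of 49 transport and assembly genes outside the 31, 30 were lower and 3 higher at 48 h in mus81 (median -0.64), and 33 were lower and 6 higher in wild type (median -0.67). Over all features the shares were 29.5% lower and 30.7% higher in mus81 and 30.1% lower and 33.1% higher in wild type. Karyopherins, the receptors that carry cargo through the FG mesh, were lower for 12 of 15 in mus81 and 13 of 15 in wild type. KAP123, an importer of ribosomal proteins, changed by -1.41 ± 0.14 in mus81 and -1.63 ± 0.14 in wild type, and SRP1 (importin alpha) by -1.33 ± 0.11 and -1.27 ± 0.11. MSN5, an exporter of phosphorylated cargo, was higher in wild type (0.32 ± 0.11, adjusted p = 0.0246) and not called in mus81 (0.20 ± 0.11).

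The Ran cycle sets the direction of transport, and 5 of its 8 genes were lower in both strains. PRP20, the exchange factor that loads Ran with GTP, changed by -1.33 ± 0.11 in mus81 and -1.39 ± 0.11 in wild type, and RNA1, the GTPase activator, by -1.05 ± 0.14 and -1.14 ± 0.14. The 2 Ran genes parted: GSP1 fell by 0.75 and 0.94 on the log2 scale in mus81 and wild type, whereas GSP2 was higher by 2.84 ± 0.15 in mus81 and 3.40 ± 0.15 in wild type. For mRNA export 9 of 12 genes were lower in both strains and none was higher. DBP5 changed by -1.36 ± 0.11 in mus81 and -1.55 ± 0.11 in wild type, MEX67, the main mRNA carrier, by -1.15 ± 0.13 and -1.15 ± 0.13, and NPL3, an RNA-binding adaptor, by -1.09 ± 0.14 and -1.72 ± 0.14.

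Of 10 genes that shape the membrane or assemble pores, 3 were lower and 2 higher in mus81, and 4 were lower and 3 higher in wild type, near the shares over all features. BRL1 and BRR6 act together in pore assembly, yet BRL1 changed by -0.64 ± 0.20 in mus81 and -1.03 ± 0.20 in wild type while BRR6 changed by 0.63 ± 0.21 and 0.53 ± 0.21. SNF7, an ESCRT subunit that seals the envelope, was higher by 0.67 ± 0.12 and 0.48 ± 0.12. Of 4 further pore subunits, NUP59, the paralogue of NUP53, changed by -0.57 ± 0.12 in mus81 and -0.47 ± 0.12 in wild type. SEC13, which the COPII coat shares, differed by -0.15 ± 0.11 in mus81 (not called) and fell by 0.46 on the log2 scale in wild type.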

How the data were processed

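The 24 libraries were grouped by their titles. The submitters' processing notes name Trim Galore 0.6.6, HISAT2 2.1.0 and the R64 genome; how reads were counted (program, strand) and scaled was not given in the sources used. The authors deposited log2 values of scaled reads in 3 tables, and tests were made within a table. Whole reads were recovered from them (at least 99.7% within 0.02 of a whole number, 0 reads entered as 0.9) for depth, RPM, single-gene reads and limma's voom with TMM factors. Features above the lowest value in at least 2 libraries were fitted with limma 3.58.1 (lmFit, eBayes with trend; R 4.3.3) on 6, 2 and 2 residual degrees of freedom, which gave the p-values here, with Benjamini-Hochberg adjustment over all features and calls at 0.05. The fit was tested on simulated reads with 1 spread setting for all features and no lane or batch effects. That run does not bear on such effects in these libraries. Alternatives changed the scaling, filter, variance model, block or 1 library. Per-library values are given for the members with the largest changes at 48 h, role leaders, paralogues, the basket and members called between strains; up to 4 genes were named per transport list, and MSN5, GSP1 and SEC13 after their values were seen. Members and lists were chosen with earlier results of these data known. Replicate numbers mark the sequencing lane of the hst3 hst4 libraries, per the file headers; in the mus81 table they disagree at 24 h with the numbers 41 and 42 in the library names, and no label says that either pairs libraries, so both were tried as a block. Sequences came from the RefSeq R64 genome, where all 31 members have the tables' coordinates.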

Additional observations from a re-analysis of the deposited data

Results flagged for a closer look

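The following 4 members moved in opposite directions with age in the translocation strain and the control, at both 24 h and 48 h, and each point is 1 library, so the difference was not tested. NUP1 differed from log phase by -1.76 at 24 h and -1.38 at 48 h in the translocation strain and by 0.64 and 0.18 in the control, a gap of -1.56 at 48 h. POM152 differed by -0.89 and -0.56 in the translocation strain and by 0.22 and 0.13 in the control, a gap of -0.70. NUP157 differed by -0.79 and -0.52 in the translocation strain and by 0.10 and 0.23 in the control, a gap of -0.75. NUP170 differed by -0.65 and -0.18 in the translocation strain and by 0.03 and 0.29 in the control, a gap of -0.47. All 4 rest on the same 2 log-phase libraries. No member did so between mus81 and wild type.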

How the results depend on the processing

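Of 161 called member results none changed direction under any alternative run. The call was lost in 85 of 1331 refits with another setting and in 126 of 672 refits without 1 library. The cause of these changes was not tested. Quantile normalization moved the median of all features at 48 h in wild type to -0.11, against 0.15, and that of the members to -0.61, against -0.83. Counts of called members were 12 at 24 h in wild type, 7 between hst3 hst4 and wild type in log phase, 1 for the hst3 hst4 ageing difference, and 4 at 24 h and 7 at 48 h in the translocation table under quantile normalization. Median centring gave 8 between hst3 hst4 and wild type in log phase and 1 for the ageing difference. Without the variance trend there were 3 for wild type 48 h against 24 h, 1 between hst3 hst4 and wild type in log phase, 0 in aged cells, and 3 at 24 h and 6 at 48 h in the translocation table. Voom on recovered reads gave 8 between hst3 hst4 and wild type in log phase, 2 in aged cells and 1 for the ageing difference. Fitting only the groups compared gave 2 for wild type 48 h against 24 h, and keeping features above the 25th percentile gave 0 between aged hst3 hst4 and wild type, since NUP42 was then not tested.

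Leaving out 1 library gave 27 to 29 called members at 48 h in wild type and 25 to 26 in mus81, 0 to 1 for mus81 48 h against 24 h, 1 to 18 for wild type 48 h against 24 h, 0 to 5 between mus81 and wild type at 24 h and 0 to 1 for their ageing difference at 24 h. It gave 3 to 26 for aged against log-phase hst3 hst4, 20 to 23 against wild type in log phase (where the spread then comes from the aged pair alone), 0 each time in aged cells and 0 to 21 for the ageing difference. In the translocation table it gave 0 to 3 between strains, 3 to 15 at 24 h and 0 to 16 at 48 h.

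With the replicate number as a block, 28 members were called at 48 h in wild type, 27 in mus81, 13 for wild type 48 h against 24 h and 21 in aged hst3 hst4. Deviations of same-numbered libraries correlated between -0.23 and 0.292 in the mus81 table, and of hst3 hst4 libraries by 0.022. Blocking on the numbers 41 and 42 of the library names gave 28 at 48 h in wild type, 27 in mus81 and 10 for wild type 48 h against 24 h. NUP42 in hst3 hst4 rests on 6 to 36 reads.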
